A study of Homo sapiens with 12 samples.

Results

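The forkhead box O (FOXO) transcription factors FOXO1, FOXO3 and FOXO4 were followed together with 7 genes that FOXO factors are known to regulate, IRS2, PIK3IP1, SESN3, TXNIP, CCNG2, BCL6 and KLF6. These 10 genes were chosen by name from a table of 58735 genes, with earlier results of these data known. All 10 were among the 16646 genes with enough reads to be tested. RNA came from C4.2B cells, a castration-resistant derivative of the LNCaP prostate cancer line. Vehicle cells (DMSO) were compared with cells given ipatasertib, an inhibitor of the AKT kinases, at 0.25 μM (AKTi), with cells given tazemetostat, an inhibitor of the histone methyltransferase EZH2, at 1 μM (EZH2i), and with cells given both (combination). Tazemetostat was started 6 days before day 0 in the EZH2i and combination arms, and AKTi cells received ipatasertib alone on day 0. Every arm was switched to charcoal-stripped serum, which is low in androgens, on day 0 and collected 24 hours later. Each arm had 3 libraries, labelled A, B and C, from replicate plates of 1 cell line, so the p-values measure the spread between plates. Library totals ran from 14133755 to 22276417 counts.

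FOXO factors are the nuclear end of the insulin and PI3K/AKT pathway. Active AKT phosphorylates them, which holds them in the cytoplasm, and inhibition of AKT lets them return to the nucleus and bind the forkhead element in target promoters. Their targets include genes that feed back on PI3K signalling, genes that restrain growth and the cell cycle, and the FOXO genes themselves. EZH2 is the catalytic subunit of PRC2, which deposits the repressive H3K27me3 mark. The libraries measured RNA, and neither the location nor the phosphorylation of FOXO proteins was measured. In bulk RNA, fewer cells expressing a gene and less RNA per cell cannot be told apart.

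Short stretches around RefSeq transcription starts are shown because they hold the forkhead element or the insulin response element in members whose levels are described next. Capitals mark the motifs, and each stretch is printed from 5′ to 3′ on the strand of the gene, from the RefSeq promoter table of GRCh38.p14. The TXNIP stretch (chr1:145996639-145996729, minus strand) runs from 150 to 60 bases before the start. The IRS2 stretch (chr13:109786584-109786683, minus strand) covers the 100 bases before the start. The PIK3IP1 stretch (chr22:31292456-31292482, minus strand) and the FOXO4 stretch (chrX:71095864-71095890, plus strand) lie just after the start, and the RefSeq start of FOXO4 lies before the gene start in the deposited table.
TXNIP: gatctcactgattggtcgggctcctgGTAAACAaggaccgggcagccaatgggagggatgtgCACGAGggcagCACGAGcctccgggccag
IRS2: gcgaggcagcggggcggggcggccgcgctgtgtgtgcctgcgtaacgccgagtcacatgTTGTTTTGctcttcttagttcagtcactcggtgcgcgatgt
PIK3IP1: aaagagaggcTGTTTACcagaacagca
FOXO4: ccggcgagtgGTAAACAgagacgtcag

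The forkhead element was searched as GTAAACA on both strands, and it was found 124 bases before the TXNIP start, 16 bases after a PIK3IP1 start (as TGTTTAC) and 23 bases after the FOXO4 start. It occurred in 3.42% of the 35116 promoter windows in the table and in 3 of the 16 windows of the members. The insulin response element, CAAAACAA on either strand, lay 41 bases before the IRS2 start (as TTGTTTTG) and occurred in 1.68% of all windows. TXNIP also held a pair of CACGAG repeats with 5 bases between them, beginning 88 bases before the start, a carbohydrate response element through which glucose-sensing factors are known to act. The search used these exact letters, which are those of the TXNIP repeat, and allowed no other form of the element. The 0.0057% of windows with a match (2 windows, TXNIP included) therefore does not give the frequency of such elements. The E-box CACGTG, present in 7.26% of windows, was found 30 bases before the CCNG2 start and 97 bases before the KLF6 start. The matches listed did not overlap one another. A match describes the letters of the window and not binding.

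Of the 10 genes, 8 were higher with AKTi than with DMSO and none was lower, 9 were higher and 1 (BCL6) was lower with EZH2i, and all 10 were higher with the combination. Among all tested genes, 20.6% were higher with AKTi, 32.6% were higher and 31.5% lower with EZH2i, and 38% were higher with the combination, by edgeR's quasi-likelihood test at a Benjamini-Hochberg adjusted p-value under 0.05. The median log2 fold change of the 10 genes was 0.77 with AKTi, 1.59 with EZH2i and 2.33 with the combination, against 0.01, 0.03 and 0.06 over all tested genes. These comparisons share the DMSO libraries. As the 10 genes were chosen with earlier results of these data known, the shares describe them and are no test of the group. The combination exceeded both single agents for 9 of the 10 genes, a pattern met by 15.5% of tested genes, and SESN3 was the exception. For 6 members each single agent raised the gene and the combination exceeded both (7.01% of tested genes). These were FOXO3, FOXO4, IRS2, PIK3IP1, TXNIP and CCNG2. The CCNG2 step from EZH2i to the combination was small, and its call, which both counts include, was lost under some alternatives.

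**Figure D1:**
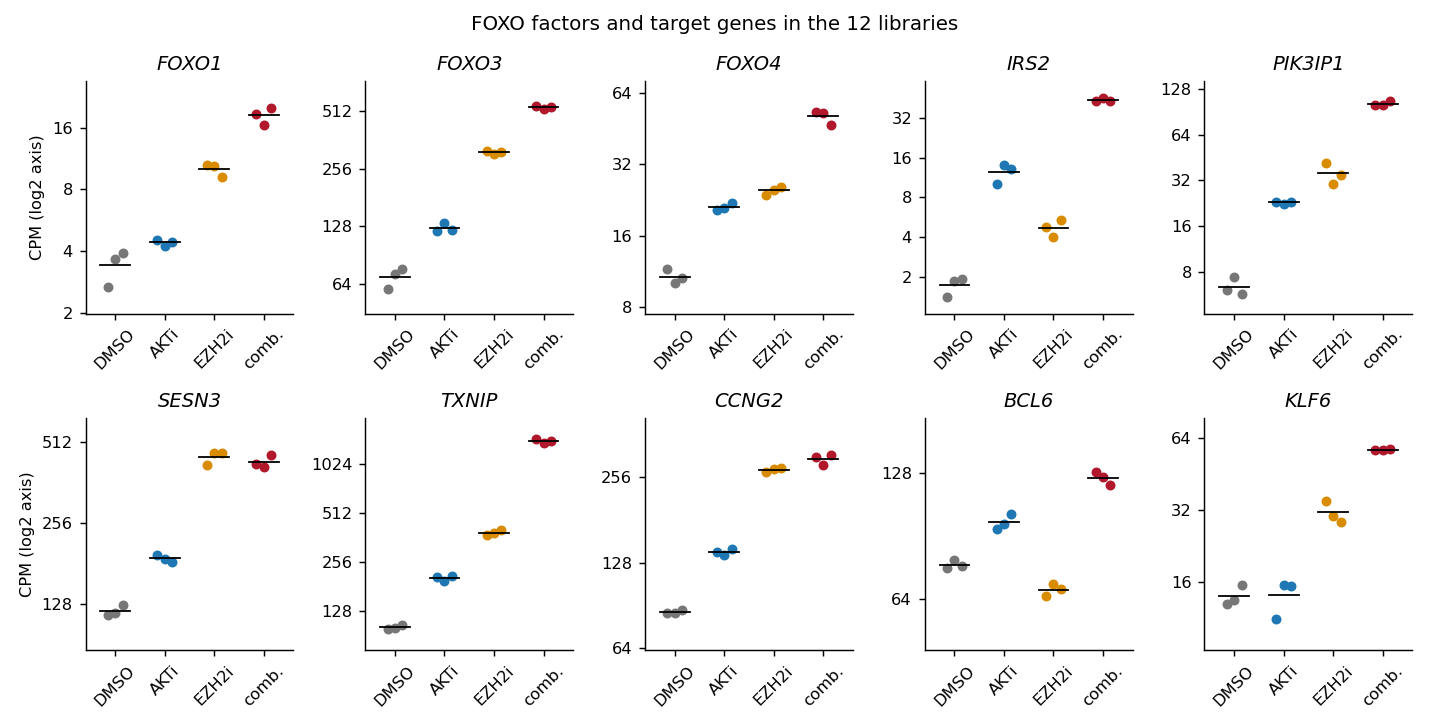
Level of each gene in CPM, its count scaled to a common library size (log2 axis, a separate range for each gene), in the 12 libraries, with 1 point per library and a bar at the mean of the 3 libraries. The combination points lie above every DMSO point for all 10 genes (38.5% of tested genes do so), the SESN3 points of EZH2i and combination overlap, and the KLF6 points of DMSO and AKTi overlap.

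**Figure D2:**
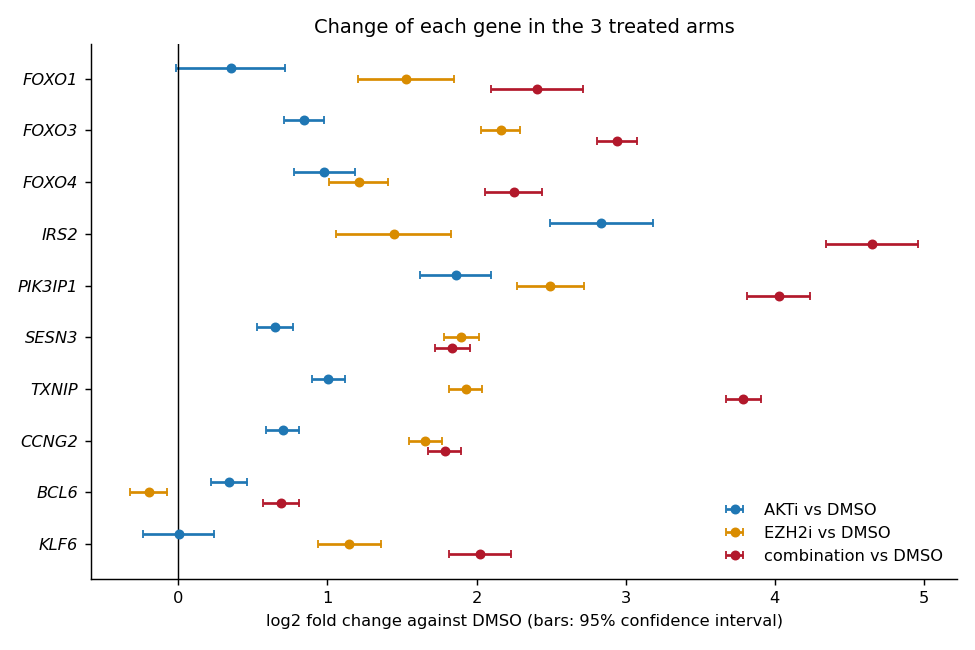
Log2 fold change against DMSO for each gene in the AKTi, EZH2i and combination arms, with 95% confidence intervals from edgeR's fit. IRS2 has the largest AKTi estimate (2.84) and the largest combination estimate (4.65), and BCL6 is the 1 gene whose EZH2i estimate lies below 0.

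FOXO3 (hg38 chr6:108559835-108684774, plus strand) was the most abundant FOXO transcript in every arm, and its level rose in each treated arm. It read 60.2, 72.2 and 76.1 CPM in DMSO libraries A, B and C, 120.0, 132 and 122 with AKTi, 316, 305 and 314 with EZH2i and 544, 524 and 538 with the combination. No arm overlapped another, and DMSO library A was the lowest. The rise was 1.79-fold with AKTi (log2 fold change 0.84, SE 0.065, adjusted p = 3.8e-13), 4.48-fold with EZH2i (adjusted p = 7.2e-26) and 7.68-fold with the combination (adjusted p = 1.8e-30). FOXO3 has a near-identical processed pseudogene copy, FOXO3B, whose level stayed between 2.36 and 6.71 CPM in all libraries, so reads assigned to the copy were few beside those of FOXO3. How reads that match both copies were treated is not given in the sources used here.

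FOXO4 (hg38 chrX:71096197-71103535, plus strand) read 11.6, 10.1 and 10.5 CPM in DMSO, 20.5, 20.9 and 21.97 with AKTi, 23.8, 25.02 and 25.7 with EZH2i and 53.3, 52.7 and 47.1 with the combination. FOXO4, which was separate in all 4 arms, rose 1.97-fold with AKTi (adjusted p = 4.2e-10) and 2.31-fold with EZH2i (adjusted p = 1.8e-13) and 4.75-fold with the combination (adjusted p = 3.5e-22). The direct difference between EZH2i and AKTi was a log2 fold change of 0.23 (adjusted p = 0.031). That call was lost when all genes with at least 1 count were tested and without DMSO library B, AKTi library A or B, or EZH2i library B or C (adjusted p = 0.053 to 0.14 without these libraries).

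FOXO1 (hg38 chr13:40469953-40666597, minus strand), the factor best known for insulin-regulated metabolism, was scarce. It read 2.69, 3.69 and 3.93 CPM in DMSO, 4.56, 4.27 and 4.45 with AKTi, 10.5, 10.4 and 9.23 with EZH2i and 18.7, 16.5 and 19.9 with the combination. All AKTi libraries lay above all DMSO libraries, but the difference did not pass the test (log2 fold change 0.35, 95% confidence interval -0.01 to 0.71, adjusted p = 0.12). FOXO1 rose 2.88-fold with EZH2i (adjusted p = 1.2e-10) and 5.29-fold with the combination (adjusted p = 1.1e-16), and the combination exceeded EZH2i by 0.87 on the log2 scale (adjusted p = 8.8e-07).

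FOXO6, a family member that was not among the chosen genes, went the other way in the combination. Its levels were 6.06, 5.38 and 7.53 CPM in DMSO and 3.95, 5.07 and 4.65 in the combination, a log2 fold change of -0.49 (adjusted p = 0.019). It was not called with AKTi (-0.31, adjusted p = 0.19) or EZH2i (0.23, adjusted p = 0.27). Per length, in RPKM (CPM divided by gene length in kilobases), the 4 family members summed to 15.3 ± 1.30 (mean ± SD, n = 3) in DMSO, to 25.2 ± 1.23 with AKTi, to 52.4 ± 1.14 with EZH2i and to 89.0 ± 1.41 with both agents. FOXO3 made up 58.7% of that sum in DMSO and 77.9% in the combination, while the FOXO6 share was 17.2% in DMSO and 2.14% in the combination. FOXO1 held 2.83% to 3.59% in every arm.

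**Figure D3:**
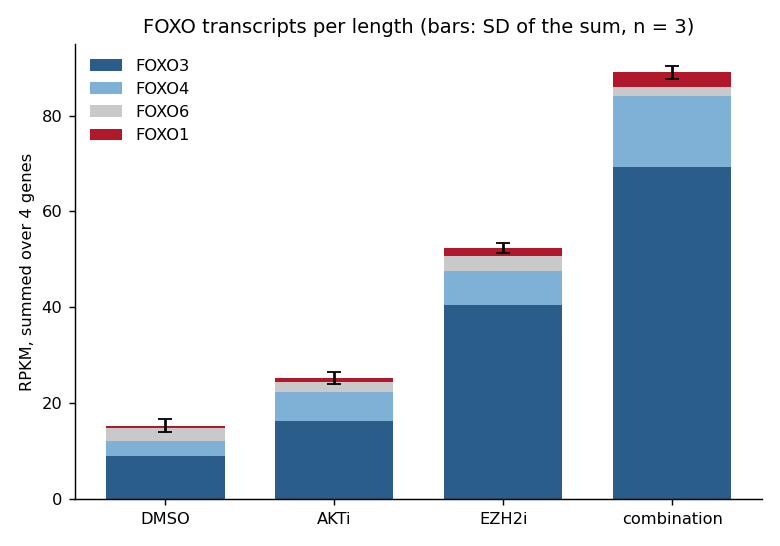
Summed RPKM of FOXO1, FOXO3, FOXO4 and FOXO6 by arm, each segment the mean of 3 libraries and the error bar the SD of the sum. FOXO3 forms the largest segment in every arm, and the sum goes from 15.3 in DMSO to 89.0 in the combination.

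Among the target genes followed here, IRS2 and PIK3IP1 had the largest log2 fold changes with AKTi (2.84 and 1.86). IRS2 (hg38 chr13:109752698-109786568, minus strand), the adaptor that couples the insulin and IGF1 receptors to PI3K, read 1.41, 1.84 and 1.92 CPM in DMSO, 10.2, 14.01 and 13.2 with AKTi, 4.75, 4.03 and 5.37 with EZH2i and 43.5, 45.4 and 43.01 with the combination. IRS2 was near the bottom of the measured range in DMSO, with 21 to 40 counts per library, and no arm overlapped another. With AKTi it rose 7.14-fold (log2 fold change 2.84, SE 0.17, adjusted p = 3.6e-16). The rise was 2.72-fold with EZH2i (adjusted p = 2.5e-08) and 25.1-fold with the combination (adjusted p = 2.0e-25). IRS2 was 1 of 2 members that were lower with EZH2i than with AKTi (log2 fold change -1.39, adjusted p = 1.4e-10; 25.1% of tested genes were lower in this comparison), BCL6 being the other.

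PIK3IP1 (hg38 chr22:31281593-31292534, minus strand) encodes a transmembrane protein that binds the PI3K catalytic subunit and inhibits it. Its levels were 6.06, 7.38 and 5.71 CPM in DMSO, 23.2, 22.5 and 22.9 with AKTi, 41.7, 30.5 and 34.9 with EZH2i and 101, 100.3 and 107 with the combination. EZH2i libraries were the most spread, and all 4 arms were separate. The gene rose 3.63-fold with AKTi (adjusted p = 1.5e-15), 5.64-fold with EZH2i (adjusted p = 7.6e-21) and 16.3-fold with the combination (adjusted p = 1.9e-28). The antisense gene PIK3IP1-AS1 overlaps it and reached at most 7% of its count in any library. The overlapping genes of the other members reached at most 1.69%.

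SESN3 (hg38 chr11:95165513-95232541, minus strand) encodes a sestrin that restrains mTORC1. It read 116, 118 and 127 CPM in DMSO, 195, 188 and 184 with AKTi, 418, 465 and 462 with EZH2i and 424, 411 and 456 with the combination. The EZH2i and combination libraries overlapped, with a log2 difference of -0.06 (95% confidence interval -0.17 to 0.05, adjusted p = 0.39) that was slightly above 0 by upper-quartile scaling. Against DMSO the gene rose 1.57-fold with AKTi (adjusted p = 1.7e-11), 3.72-fold with EZH2i (adjusted p = 1.7e-25) and 3.57-fold with the combination (adjusted p = 8.1e-26).

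TXNIP (hg38 chr1:145992435-145996600, minus strand), which binds thioredoxin and limits glucose uptake, was the most abundant member per length in every arm. It read 99.3, 101 and 106 CPM in DMSO, 206, 196 and 211 with AKTi, 374, 387 and 402 with EZH2i and 1451, 1369 and 1406 with the combination. No arm overlapped another, and the 3 combination libraries stood far above the rest. TXNIP rose 2.01-fold with AKTi (log2 fold change 1.01, SE 0.055, adjusted p = 3.5e-17), 3.80-fold with EZH2i (adjusted p = 2.1e-26) and 13.8-fold with the combination (adjusted p = 5.1e-35).

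CCNG2 (hg38 chr4:77157151-77433388, plus strand) encodes cyclin G2, an unusual cyclin linked to cell cycle arrest. Its levels were 85.02, 85.3 and 87.5 CPM in DMSO, 140.0, 136 and 143 with AKTi, 266, 272 and 275 with EZH2i and 300.1, 282 and 306 with the combination. The gene rose 1.62-fold with AKTi (adjusted p = 6.5e-13), 3.15-fold with EZH2i (adjusted p = 1.4e-24) and 3.45-fold with the combination (adjusted p = 2.9e-26). From EZH2i to the combination the log2 difference was 0.13 (adjusted p = 0.039). This last call was lost when all genes with at least 1 count were tested (adjusted p = 0.29). It was also lost without any 1 EZH2i library, or without library A or C of the combination (adjusted p = 0.056 to 0.15 over these left-out libraries).

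BCL6 (hg38 chr3:187721377-187745727, minus strand), a transcriptional repressor, had the smallest combination change of the 10 genes. It read 75.8, 79.1 and 76.9 CPM in DMSO, 94.2, 96.7 and 102 with AKTi, 64.96, 69.5 and 67.3 with EZH2i and 129, 125 and 119.6 with the combination. The EZH2i libraries lay below DMSO and the AKTi and combination libraries above it. BCL6 rose with AKTi (log2 fold change 0.34, adjusted p = 1.6e-05) and with the combination (1.61-fold, adjusted p = 4.8e-13). The lower value with EZH2i (log2 fold change -0.20, adjusted p = 0.0044) was not called when libraries were scaled by size only (-0.05, adjusted p = 0.44) or by upper quartile (-0.08, adjusted p = 0.24).

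KLF6 (hg38 chr10:3775996-3785281, minus strand), a zinc-finger transcription factor, read 12.9, 13.4 and 15.5 CPM in DMSO, 11.1, 15.5 and 15.4 with AKTi, 34.7, 30.2 and 28.4 with EZH2i and 56.8, 56.7 and 57.4 with the combination. AKTi and DMSO libraries overlapped, with a log2 fold change near 0 (95% confidence interval -0.23 to 0.24, adjusted p = 0.99). KLF6 rose 2.21-fold with EZH2i (adjusted p = 5.2e-12) and 4.07-fold with the combination (adjusted p = 1.1e-19), so that the combination exceeded EZH2i by 0.88 on the log2 scale (adjusted p = 5.3e-10).

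The order of the genes by RPKM changed with treatment. In DMSO it ran from TXNIP (28.1 ± 0.91) over BCL6 (13.0 ± 0.29), CCNG2 (11.5 ± 0.18), SESN3 (11.4 ± 0.54) and FOXO3 (9.001 ± 1.07) to FOXO1 (0.55 ± 0.11) and IRS2 (0.21 ± 0.033), and only CCNG2 and SESN3 overlapped their neighbour (mean ± SD, n = 3). In the combination TXNIP (389 ± 11.3) was followed by FOXO3 (69.3 ± 1.32), SESN3 (40.7 ± 2.22), CCNG2 (39.7 ± 1.66) and PIK3IP1 (27.01 ± 1.03), with BCL6 next at 21.0 ± 0.78. IRS2 (5.40 ± 0.16) then lay above FOXO1 (2.95 ± 0.27), and SESN3 and CCNG2 again overlapped.

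The combination was then set against the added effects of both agents, on a log2 scale. The interaction term, which is also the AKTi effect in cells given tazemetostat minus that in cells without it, passed the test for 5 of the 10 genes, 3 positive and 2 negative. Over all tested genes, 10.7% had a positive and 17.5% a negative interaction. TXNIP rose 13.8-fold in the combination where the sum would give 7.64-fold (interaction 0.86, SE 0.075, adjusted p = 2.8e-11). KLF6 rose 4.07-fold against 2.22-fold for the sum (interaction 0.88, adjusted p = 1.7e-05), and BCL6 1.61-fold against 1.10-fold (interaction 0.55, adjusted p = 3.0e-06). For SESN3 the combination gave 3.57-fold against 5.84-fold (interaction -0.71, adjusted p = 9.6e-09), and for CCNG2 3.45-fold against 5.12-fold (interaction -0.57, adjusted p = 2.2e-07).

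The interaction of IRS2 did not pass the test. Its combination fold of 25.1 was the largest, and the sum gave 19.4-fold (interaction 0.37, 95% confidence interval -0.10 to 0.84, adjusted p = 0.25). For FOXO3 the interaction was -0.06 (95% confidence interval -0.24 to 0.12) and for FOXO4 0.06 (-0.21 to 0.33). FOXO1 had an interaction of 0.52 (95% confidence interval 0.07 to 0.98, adjusted p = 0.077), which passed the test without DMSO library A (0.66, adjusted p = 0.028). PIK3IP1 had -0.33 (95% confidence interval -0.62 to -0.03, adjusted p = 0.091), which passed it without EZH2i library B (-0.43, adjusted p = 0.018).

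**Figure D4:**
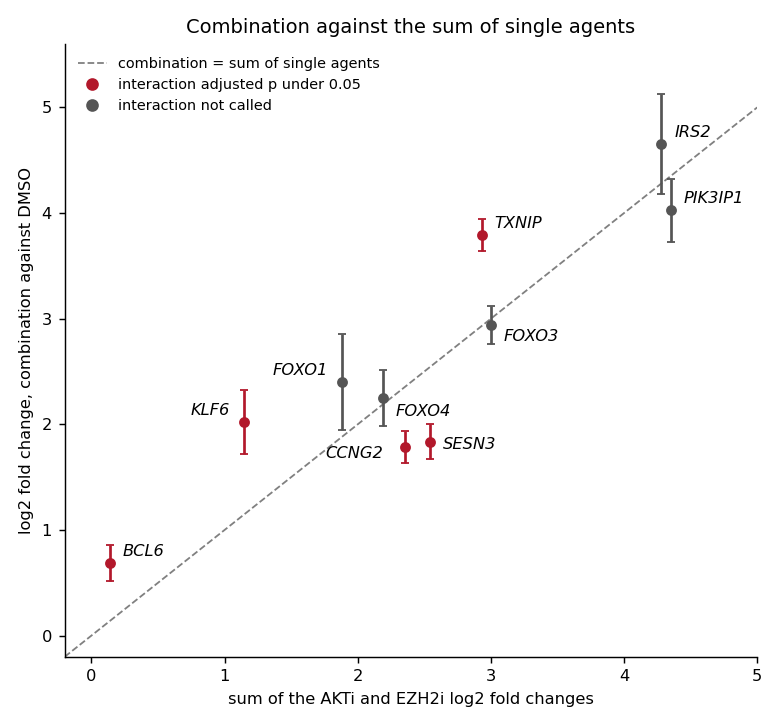
Log2 fold change of the combination against DMSO (y axis) plotted on the sum of the AKTi and EZH2i log2 fold changes (x axis) for the 10 genes, with the dashed line where both are equal and bars giving the 95% confidence interval of the interaction. TXNIP, KLF6 and BCL6 lie above the line, SESN3 and CCNG2 lie below it, and the bars of FOXO3, FOXO4 and IRS2 cross it. The bars of FOXO1 (above) and PIK3IP1 (below) miss the line, but their interactions were not called after adjustment.

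Step by step, tazemetostat added to AKTi raised all 10 genes, with log2 differences between the combination and AKTi from 0.35 for BCL6 to 2.78 for TXNIP (32.1% of tested genes were higher). Ipatasertib added to tazemetostat raised 9 genes (21.1% of tested genes were higher), of which the CCNG2 call was lost under some alternatives. IRS2 had the largest such difference, 3.21 or 9.24-fold (adjusted p = 6.8e-22), ahead of TXNIP at 1.86, PIK3IP1 at 1.53 and FOXO4 at 1.04. Between the single agents, 8 members were higher with EZH2i than with AKTi (25.4% of tested genes), the largest difference being that of FOXO3 (1.32, adjusted p = 1.4e-19). The FOXO4 call among them was lost under some alternatives. Only EZH2i cells had the 6 days of pretreatment, so agent and length of exposure cannot be told apart here.

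A list of 71 other genes that FOXO factors are known to activate gave 61 tested genes. With AKTi 33 of them were higher and 13 lower, with EZH2i 39 and 10, and with the combination 45 and 10, and the median log2 fold changes were 0.37, 0.54 and 1.00. The higher genes were 54.1%, 63.9% and 73.8% of the list, against 20.6%, 32.6% and 38% of all tested genes. This list and those below were written with earlier results of these data known. Their shares describe the lists and are no test of enrichment. The lower genes were 21.3% of the list with AKTi, close to the 21.9% of all tested genes, and 16.4% with EZH2i and with the combination, against 31.5% and 35.2%. Scaling by library size alone gave 6 in place of 10 lower with EZH2i. KLHL24, an adaptor of an E3 ubiquitin ligase, had the largest combination estimate among the named genes, 4.05 (adjusted p = 5.9e-33), after 1.95 with AKTi and 2.60 with EZH2i. FBXO32, the atrophy ubiquitin ligase atrogin-1, went from 1.48 to 3.21 CPM in DMSO to 6.16 to 8.90 with AKTi, 7.07 to 8.18 with EZH2i and 25.8 to 32.1 with the combination (log2 fold change 3.66, adjusted p = 4.5e-20). YPEL3, an inhibitor of growth, rose by 1.56, 1.39 and 3.01 on the log2 scale in the same order of arms. The antiproliferative gene BTG1 rose by 1.27, 2.71 and 3.35, and the sestrin SESN1 by 0.61, 2.66 and 3.22.

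Other members of that list fell. PMAIP1, which encodes the pro-apoptotic protein NOXA, was at 16.7 to 19.3 CPM in DMSO, 7.79 to 8.46 with AKTi, 3.90 to 4.27 with EZH2i and 4.96 to 7.40 with the combination (log2 fold changes -1.14, -2.14 and -1.56). PRDX3, a mitochondrial peroxiredoxin, and LPIN1, a phosphatidate phosphatase, fell in every arm, with log2 fold changes of -1.29 and -1.19 in the combination. CDKN1A, which encodes the cell cycle inhibitor p21, fell with AKTi (-0.76, adjusted p = 4.5e-11) and rose with EZH2i (0.82) and the combination (1.21, adjusted p = 9.6e-19). The death ligand TNFSF10 fell with AKTi (-1.03), rose with EZH2i (0.76) and was not called with the combination (0.12, adjusted p = 0.58). EIF4EBP1, which encodes an inhibitor of cap-dependent translation, fell with EZH2i (-1.54) and the combination (-0.58).

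Of 11 genes listed as FOXO-repressed, 8 were tested. The listing came from general knowledge. Whether FOXO factors repress or activate each of them in these cells was not tested, PLK1, CCNB1 and CTNNB1 included. With AKTi 3 were higher and 4 lower, with EZH2i 4 and 4, and with the combination 3 and 5, and the median in the combination was -0.84 on the log2 scale. With AKTi, EZH2i and the combination, 37.5%, 50% and 37.5% of the 8 were higher, against 20.6%, 32.6% and 38% of all tested genes. The lower shares were 50%, 50% and 62.5%, against 21.9%, 31.5% and 35.2%. Mitotic genes were among the lower ones. The kinase gene PLK1 fell by 3.22, the cyclin gene CCNB1 by 2.82 and the transcription factor gene FOXM1 by 2.48 on the log2 scale in the combination (adjusted p = 2.1e-30, 2.0e-30 and 3.4e-27). CCND1, which encodes cyclin D1, rose slightly with each single agent (0.24 with AKTi and 0.22 with EZH2i) and fell with the combination (-0.42). NOS3, the endothelial nitric oxide synthase gene, rose in every arm, from 2.95 to 4.22 CPM in DMSO to 52.3 to 54.2 in the combination (log2 fold change 3.91, adjusted p = 9.7e-26), and the Notch ligand gene JAG1 rose by 1.14. CTNNB1, which encodes β-catenin, rose by 0.55 with EZH2i and 0.21 with the combination. VWF, another endothelial gene, went from 2.11 to 2.95 CPM in DMSO to 4.76 to 7.38 in the combination. PECAM1 and CDH5 were at or below 0.304 CPM in every library. All RNA came from the C4.2B line in culture, and the cause of the NOS3 rise was not tested.

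Of 47 genes for kinases, ligases and other proteins that act on FOXO factors, 46 were tested. With AKTi 10 were higher and 19 lower, with EZH2i 15 and 21, and with the combination 19 and 24. The shares that were higher, 21.7%, 32.6% and 41.3%, were close to those of all tested genes (20.6%, 32.6% and 38%). The shares that were lower were 41.3%, 45.7% and 52.2%, against 21.9%, 31.5% and 35.2%. AKT1 fell by 0.82 on the log2 scale in the combination (adjusted p = 5.8e-15), while AKT2 had -0.14 there (adjusted p = 0.021) and a value above 0 by library size or upper-quartile scaling. The AKT2 call was also lost when only genes with at least 10 counts in every library were tested (-0.07, adjusted p = 0.22). It was lost too without DMSO library C or combination library C (adjusted p = 0.073 and 0.081). SGK1, a kinase related to AKT that also phosphorylates FOXO3, was at 2.40 to 2.89 CPM in DMSO, 1.45 to 1.88 with AKTi, 10.9 to 12.7 with EZH2i and 4.44 to 5.42 with the combination. The SGK1 rise with EZH2i was 2.16 (adjusted p = 6.1e-13) and that with the combination 0.92 (adjusted p = 7.3e-05). Its relative SGK3 fell with EZH2i (-0.89) and the combination (-0.49). The cyclin-dependent kinase genes CDK1 and CDK2 fell by 4.35 and 2.60 with the combination, SKP2, a ubiquitin ligase subunit for FOXO1, by 1.82 and the arginine methyltransferase gene PRMT1 by 1.76. The acetyltransferase genes KAT2B and CREBBP rose by 1.42 and 1.18, the deacetylase gene SIRT3 by 0.80, and the kinase genes MAPK3 and PDPK1, the latter encoding the activator of AKT, by 0.56 and 0.45.

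**Figure D5:**
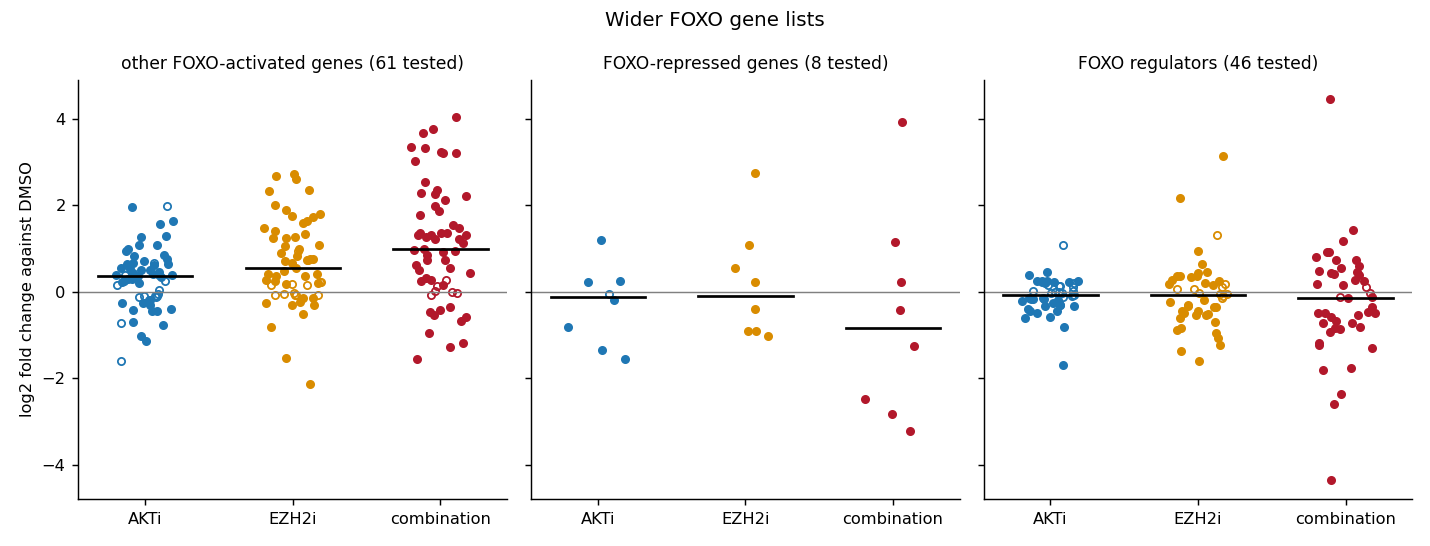
Log2 fold change against DMSO of each tested gene in the 3 wider lists, by arm, with filled points for an adjusted p-value under 0.05, open points for the rest and a bar at the median. The median of the FOXO-activated genes goes from 0.37 with AKTi to 1.00 with the combination.

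By the distance between their 3 log2 fold changes against DMSO, the protein-coding genes most like IRS2 were CREBRF (distance 1.26), TCP11L2 (1.26), ABTB1 (1.41), SLIT1 (1.498) and NATD1 (1.54), among 11367 candidates. KLF6 had closer neighbours, TLE1 (0.155), ATP6AP1L (0.212), MARK1 (0.221), HDGFL3 (0.232) and PCLO (0.251). IRS2 and KLF6 were taken for having the largest and the smallest AKTi estimate among the 10 genes.

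The libraries carried the markers of the prostate line, with 10 of 10 such genes over 1 CPM in each arm and a summed level of 3988 to 4122 CPM in DMSO and 8766 to 8955 in the combination. KLK3, which encodes prostate-specific antigen, made up much of that sum (1338 to 1389 CPM in DMSO and 3881 to 3980 in the combination). HOXB13, at 403 to 440 CPM in DMSO and 289 to 303 in the combination, and EPCAM, at 122 to 131 and 102 to 106, were lower there in every library. Of 16 markers of other cell types, 3 to 4 were over 1 CPM in an arm and 5 to 10 had no count in it, and their summed level was 9.25 to 13.3 CPM in DMSO, 12.5 to 14.1 with AKTi, 26.99 to 28.02 with EZH2i and 18.7 to 23.9 with the combination. Mitochondrial transcripts took 2.37% to 3.36% of counts in DMSO and 5.14% to 5.64% in the combination. The part of these shifts in the values of the 10 genes was not tested.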

How the data were processed

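The libraries were polyA RNA-seq of C4.2B cells, prepared through Novogene per the labels. The authors used STAR for alignment to hg38, HTSeq for gene counts and DESeq2 for normalization. Tool versions, annotation and strand setting are not given in the sources used here, so reads of overlapping or near-identical genes may be split or lost. The deposited count values are raw. The deposited signal values are these counts over a size factor for the library (checked on 56994 gene names) and were used for that check alone. The sequencing run of each library is not given in the sources used here, so no batch was modelled.

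Counts were filtered with filterByExpr (minimum count 10, minimum total 15), scaled by TMM and fitted with edgeR 4.0.16 in R 4.3.3, with 1 mean per arm over all 12 libraries. The quasi-likelihood test was applied to each contrast, with Benjamini-Hochberg adjustment over all 16646 genes and a threshold of 0.05. CPM used TMM-scaled library sizes, and RPKM divided CPM by the deposited gene length. Estimates were less precise for genes with fewer counts. The SE of the log2 fold change with AKTi was 0.055 for TXNIP, 0.12 for PIK3IP1 and for KLF6, and 0.18 for FOXO1. Counts were below about 50 for IRS2 in DMSO and SGK1 with AKTi, among others. The steps were tested on simulated data in which few genes changed, and only in the combination arm. That simulation could not check the scaling where many genes change, as in these libraries. Alternatives were DESeq2 1.42.0, library-size and upper-quartile scaling, 2 other count filters, a fit of the compared libraries alone, a replicate block, and omission of each library. Those for the wider lists were chosen after seeing the data.

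All 10 members were named, and the members and lists were chosen with earlier results of these data known. The lists were written from general knowledge. From each list the text names extremes (the 3 largest and 3 smallest log2 fold changes among called genes with a mean of at least 1 log2 CPM, in each comparison with DMSO), and AKT1, AKT2, SGK1 and SGK3. Some genes that met the rule are not reported here. SOD2, listed under 2 gene entries, was left out of the counts. All 10 members were matched by symbol in the RefSeq promoter table.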

Additional observations from a re-analysis of the deposited data

Results flagged for a closer look

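For 5 of the 10 genes, the AKTi effect differed between cells with and without tazemetostat by the interaction term of edgeR's quasi-likelihood test with Benjamini-Hochberg adjustment. For TXNIP the effect was 1.01 on the log2 scale without tazemetostat and 1.86 with it, a difference of 0.86 (adjusted p = 2.8e-11). KLF6 had an effect of 0.0018 without and 0.88 with tazemetostat, a difference of 0.88 (adjusted p = 1.7e-05). BCL6 had 0.34 without and 0.89 with it, a difference of 0.55 (adjusted p = 3.0e-06). SESN3 went the other way, from 0.65 to -0.06, a difference of -0.71 (adjusted p = 9.6e-09). CCNG2 went from 0.70 to 0.13, a difference of -0.57 (adjusted p = 2.2e-07). All 3 libraries of each arm lay on the same side in the comparisons behind these values, except for KLF6 without and SESN3 with tazemetostat, where the libraries overlapped.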

How the results depend on the processing

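Under all alternatives the number of members called stayed at 8 with AKTi, at 9 to 10 with EZH2i and at 10 with the combination, and 5 to 6 interactions were called. Of 1320 recomputed values of single members, 1295 kept their direction and their side of the threshold, 14 lost and 2 gained a call, and 9 changed sign. The KLF6 change with AKTi was -0.0070 by DESeq2, -0.0049 when every gene with a count was tested and -0.10 to 0.12 over the left-out libraries. SESN3 in the combination against EZH2i was 0.0055 by upper-quartile scaling, and the FOXO3 interaction was -0.14 to 0.030 over the left-out libraries. AKT2 in the combination was 0.059 by library size and 0.047 by upper quartile. AKT2 with EZH2i was -0.016 to 0.075 over the left-out libraries, with a call gained at 0.20 by library size (adjusted p = 0.0014) and at 0.17 by upper quartile (adjusted p = 0.0038). Of the 61 other FOXO-activated genes, 6 were lower with EZH2i by library size only, against 10. The cause of these changes was not tested. Library-size scaling moved the median of all genes in the combination from 0.06 to 0.26 on the log2 scale. A replicate block on the library letters gave 8, 10 and 10 members called with AKTi, EZH2i and the combination, and 7044 in place of 7073 genes with AKTi. No shared effect of the letters was seen, as deviations of the 18 same-letter pairs correlated at -0.058 to 0.069. Whether plates with the same letter were handled together is not given in the sources used here. Depth limits IRS2 (21 to 40 counts per library) and FOXO1 (40 to 82) in DMSO. To a lesser degree it limits PIK3IP1 (90 to 119), FOXO4 (137 to 220) and KLF6 (181 to 323) in DMSO. In the wider lists it also limits, among others, FBXO32 (20 to 67 counts) and NOS3 (40 to 88) in DMSO. SGK1 had 34 to 50 counts in DMSO and 20 to 27 with AKTi, and TNFSF10 27 to 31 with AKTi.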

Other observations

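The AKTi effect with and without tazemetostat was also counted over the wider lists. Of the 61 other FOXO-activated genes, 13 had a positive and 12 a negative interaction by edgeR's quasi-likelihood test at an adjusted p-value under 0.05, against 10.7% and 17.5% of all tested genes. Of the 8 genes listed as FOXO-repressed, 6 had a negative and 0 a positive interaction, with a median of -0.52. Of the 46 regulators, 10 had a positive and 8 a negative one.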
